A study of Mus musculus with 14 samples.

Results

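The set comprised 10 genes of glucose production and insulin signalling, followed in the kidneys of mice injected with a protein nanocage: Pck1, G6pc, Fbp1, Ppargc1a, Pdk4, Insr, Irs1, Irs2, Foxo1 and Igfbp1. They were taken by symbol from the table of gene counts, which held all of them among its 24421 genes. All 10 also passed the filter on low counts, which left 14854 genes for testing. The lowest count of any of them in a library was 31, for Igfbp1 in Dps at 24 h replicate 2.

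The kidneys came from male C57BL/6J mice, whose age the labels do not give, and RNA was sequenced from the whole organ. Mice had received MnDps or Dps intravenously at 18 mg/kg, or vehicle. Dps is a protein nanocage, going by the title of the study, and the labels do not spell out what MnDps adds to it. The groups were MnDps at 24 h (2 libraries), MnDps at 4 h (3), Dps at 24 h (3), Dps at 4 h (3) and vehicle (3). The labels name no time for the vehicle kidneys, so each injected group was set against the same 3 libraries. Time after injection cannot be told apart from hour of day or feeding in those comparisons, nor between 4 h and 24 h. The labels also do not say that libraries came from separate animals, so p-values measure only the spread between these libraries. Total counts ran from 15097093 to 42074942 per library. The 13 proximal tubule markers were all detected in every group, with a summed level of 47673 to 73016 CPM (counts scaled to a common library total) over the 14 libraries.

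Gluconeogenesis makes glucose from lactate, glutamine and glycerol, and runs in the liver and in the proximal tubule of the kidney. Pck1, Fbp1 and G6pc encode enzymes that carry the pathway past the irreversible steps of glycolysis. Insulin acts through its receptor Insr and the adaptors Irs1 and Irs2 on the kinase Akt, which keeps the transcription factor Foxo1 out of the nucleus. In liver, Foxo1 raises the transcription of G6pc, Pck1, Igfbp1 and Irs2 when insulin is low, and the coactivator Ppargc1a raises gluconeogenic genes in fasting.

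RefSeq promoter windows (build GRCm38.p6) were matched by symbol for 9 of the 10 genes. They are shown for 4 genes whose levels moved in different ways, since this set of genes is known for insulin and cAMP control at the promoter. Each line holds the 250 bases before the annotated start, on the strand of the gene, for Pck1 at chr2:173152823-173153072 (plus strand), G6pc at chr11:101367466-101367715 (plus), Igfbp1 at chr11:7197537-7197786 (plus) and Irs2 at chr8:11008930-11009179 (minus). Capitals mark the motif matches found, on either strand.
Pck1: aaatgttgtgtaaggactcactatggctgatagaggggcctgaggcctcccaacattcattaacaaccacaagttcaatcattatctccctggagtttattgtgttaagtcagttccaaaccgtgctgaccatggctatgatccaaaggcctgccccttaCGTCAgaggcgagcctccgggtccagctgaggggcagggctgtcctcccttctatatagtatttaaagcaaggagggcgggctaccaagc
G6pc: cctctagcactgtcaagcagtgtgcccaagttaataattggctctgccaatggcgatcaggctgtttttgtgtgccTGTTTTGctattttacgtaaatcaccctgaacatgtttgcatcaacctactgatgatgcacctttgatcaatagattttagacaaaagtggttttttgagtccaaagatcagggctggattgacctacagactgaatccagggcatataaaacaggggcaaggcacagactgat
Igfbp1: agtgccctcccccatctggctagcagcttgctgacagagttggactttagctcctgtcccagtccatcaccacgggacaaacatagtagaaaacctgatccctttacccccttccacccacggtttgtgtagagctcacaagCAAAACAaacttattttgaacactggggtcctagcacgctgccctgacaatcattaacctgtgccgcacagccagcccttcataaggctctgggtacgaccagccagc
Irs2: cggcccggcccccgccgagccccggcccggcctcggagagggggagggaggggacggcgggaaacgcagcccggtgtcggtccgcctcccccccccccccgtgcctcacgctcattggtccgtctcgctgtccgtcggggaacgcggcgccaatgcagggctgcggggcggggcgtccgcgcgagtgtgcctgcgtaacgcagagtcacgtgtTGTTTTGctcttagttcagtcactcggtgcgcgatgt
The letters CAAAACA, the core of the insulin response sequences to which Foxo factors bind, were present 167 bases before the start in G6pc, 101 bases before it in Igfbp1 and 30 bases before it in Irs2. Irs1 held them at 104 and at 25 bases. They occurred in 5.56% of all 32851 promoter windows of this length. The letters TGACG, the short core of the cAMP response element, lay 85 bases before the start of Pck1, 113 before that of Irs1 and 44 before that of Ppargc1a, and occurred in 17.8% of all windows. The letters GTAAACA, another Foxo core, were in none of the 9 windows and in 3.17% of all. Distances are from the RefSeq start, which is not the GENCODE start given with each gene further on: the windows of Pck1, G6pc and Igfbp1 run into the GENCODE gene, and that of Irs2 ends before it. The motifs do not contain one another. A match is a description of these letters, not a binding site.

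In short, Pck1 rose at 4 h after MnDps and fell at 24 h after MnDps, each relative to vehicle. Both of these Pck1 results failed the test in some of the alternative runs named below. At 4 h Dps differed from vehicle by 0.60 (log2) without passing, and MnDps from Dps by 0.10, also without passing. G6pc and Ppargc1a fell in 3 of the 4 injected groups, with only Dps at 4 h failing the test. Irs2 fell in MnDps at 4 h and in Dps at 24 h, Irs1 in MnDps at 4 h, and Igfbp1 and Insr in Dps at 24 h. Fbp1, Foxo1 and Pdk4 passed the test in none of the 4 comparisons with vehicle. Log2 fold changes are given with their SE, and called means an adjusted p below 0.05 in edgeR's quasi-likelihood test. Each call was repeated with the tools DESeq2 and voom, with other size factors and filters on counts, in a fit of only the groups compared, with a correction for transcript length and GC content, with a term marking deep libraries (over 30000000 counts), and without each library in turn. In RNA from a whole kidney, fewer cells of a type and less RNA per cell cannot be told apart.

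**Figure D1:**
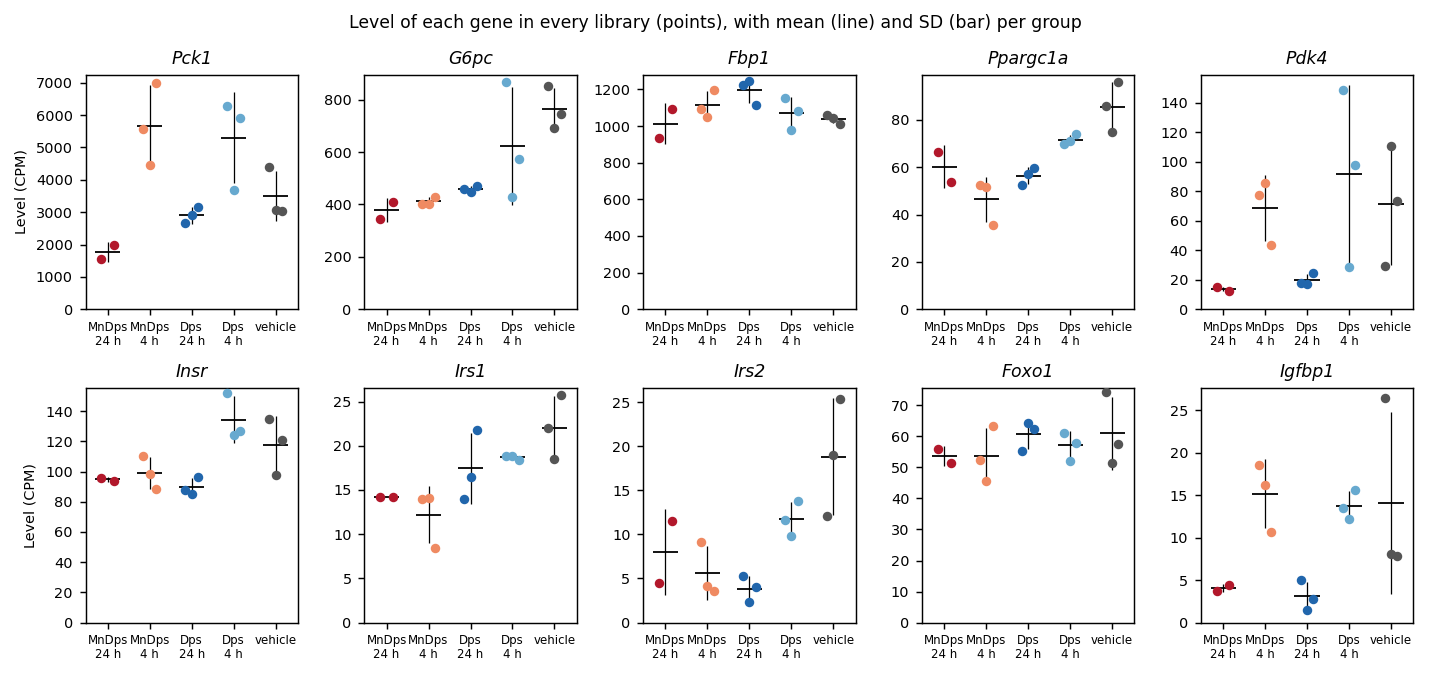
Level of each gene in CPM (vertical axis, from 0) in every library, by group; points are libraries, lines are group means and bars are SD. Pck1 sits between 1540 and 1977 CPM in MnDps at 24 h, below every other library, and Ppargc1a sits at 73.9 CPM or less in every injected library, below the 3 vehicle libraries.

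Pck1 encodes the cytosolic phosphoenolpyruvate carboxykinase, which turns oxaloacetate into phosphoenolpyruvate. The gene lies at chr2:173153048-173159273 (plus strand, 9 exons, GRCm38). Its level was 1540 and 1977 CPM in MnDps at 24 h, against 4402, 3070 and 3023 CPM in vehicle. It was 5577, 4468 and 6979 CPM in MnDps at 4 h. The 24 h libraries of MnDps were all below vehicle and the 4 h libraries all above it, in the second case by a narrow gap to vehicle replicate 1. Dps gave 2651, 2907 and 3175 CPM at 24 h and 6290, 3697 and 5914 CPM at 4 h, and both of these groups overlapped vehicle. Pck1 fell at 24 h after MnDps (log2 fold change −0.99 ± 0.26 SE, adjusted p = 0.0274) and rose at 4 h after MnDps (0.70 ± 0.22, adjusted p = 0.023). For Dps the differences from vehicle were −0.27 ± 0.22 at 24 h (adjusted p = 0.422) and 0.60 ± 0.22 at 4 h (adjusted p = 0.0934). The fall lost its call without MnDps at 24 h replicate 1 (−0.83), its replicate 2 (−1.18) or vehicle replicate 1 (−0.80), and the rise lost its call without MnDps at 4 h replicate 1 (0.70) or 3 (0.52), vehicle replicate 2 (0.59) or 3 (0.60), or with the correction for length and GC (0.51), voom (0.59) or a term for deep libraries (0.61). For Dps at 4 h the call was gained without its replicate 2 (0.81) or without vehicle replicate 1 (0.79). Fat cells also use Pck1, and the summed level of 8 adipocyte markers was 135 to 246 CPM in MnDps at 4 h and 173 to 269 CPM in Dps at 4 h, against 49.5 to 111 CPM in vehicle. It was also 124 to 220 CPM in Dps at 24 h, where Pck1 was not higher than vehicle, and 66.1 to 178 CPM in MnDps at 24 h; its part in the Pck1 values was not tested.

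G6pc encodes the catalytic subunit of glucose 6-phosphatase, which frees glucose in the last step of the pathway. It lies at chr11:101367561-101377903 (plus strand, 5 exons). It was at 345 and 411 CPM in MnDps at 24 h, 402, 402 and 430 CPM in MnDps at 4 h, and 458, 447 and 471 CPM in Dps at 24 h, against 853, 692 and 746 CPM in vehicle. These 3 groups lay wholly below vehicle. Dps at 4 h was spread, at 869, 429 and 572 CPM, and overlapped vehicle. G6pc fell in MnDps at 24 h (−1.01 ± 0.22, adjusted p = 0.0113), in MnDps at 4 h (−0.89 ± 0.19, adjusted p = 0.00212) and in Dps at 24 h (−0.74 ± 0.19, adjusted p = 0.0174). The Dps 4 h difference was −0.29 ± 0.19 (adjusted p = 0.321), and without Dps at 4 h replicate 1, the highest library, it was −0.59 and passed the test, while without Dps at 4 h replicate 2, the lowest, it was −0.07. Without MnDps at 24 h replicate 1 the 24 h fall after MnDps was −0.90 and lost its call; that after Dps lost its call without Dps at 24 h replicate 1 (−0.74) or 2 (−0.73), or vehicle replicate 1 (−0.66) or 3 (−0.75).

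Fbp1 encodes fructose bisphosphatase, the enzyme between the steps of Pck1 and G6pc. It lies at chr13:62864753-62888282 (minus strand, 7 exons). Its group means were 1013 ± 112 CPM in MnDps at 24 h (SD, n = 2), 1113 ± 77.3 CPM in MnDps at 4 h, 1194 ± 68.9 CPM in Dps at 24 h, 1071 ± 88.5 CPM in Dps at 4 h and 1038 ± 23.7 CPM in vehicle (n = 3 each). Its log2 differences from vehicle ran from −0.03 ± 0.09 in MnDps at 24 h to 0.20 ± 0.08 in Dps at 24 h (adjusted p = 0.0967), where all 3 libraries were above vehicle and voom gave a call (0.22). Its MnDps 4 h difference was 0.10 ± 0.08, and with the correction for length and GC content it was −0.29 and passed the test. That correction gave −0.05 in Dps at 24 h, −0.26 in MnDps at 24 h and −0.00 in Dps at 4 h, with no call. The direction in MnDps at 4 h and in Dps at 24 h thus depended on the correction.

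Ppargc1a encodes PGC-1alpha, a coactivator of mitochondrial and gluconeogenic genes. It lies at chr5:51454250-51567726 (minus strand, 13 exons) and overlaps 4 unconfirmed transcript models. Of these Gm42613 is on the opposite strand, and Gm42614, Gm42615 and Gm43605 are on the same strand. Reads could be assigned to them differently, since neither the annotation nor the strand setting of the counting is given. Ppargc1a was at 66.6 and 53.7 CPM in MnDps at 24 h, 52.4, 51.5 and 35.5 CPM in MnDps at 4 h, 52.6, 57.2 and 59.5 CPM in Dps at 24 h, and 69.8, 71 and 73.9 CPM in Dps at 4 h. Vehicle was at 85.9, 74.9 and 96 CPM, and all 11 injected libraries were below all 3 of these. Ppargc1a fell in MnDps at 4 h (−0.88 ± 0.13, adjusted p = 1.09e-04), in Dps at 24 h (−0.60 ± 0.13, adjusted p = 0.00688) and in MnDps at 24 h (−0.52 ± 0.15, adjusted p = 0.0322). In Dps at 4 h the difference was −0.26 ± 0.13 (adjusted p = 0.186), and with the correction for length and GC it was −0.31 and passed the test. The calls at 4 h for MnDps and at 24 h for Dps held in every alternative run, though the length and GC correction reduced the value to −0.51 in MnDps at 4 h and −0.33 in Dps at 24 h. The 24 h call for MnDps was lost without either of its libraries (−0.68 without replicate 1, −0.37 without replicate 2), without vehicle replicate 1 (−0.52) or 3 (−0.42), with the length and GC correction (−0.23) or with the term for deep libraries (−0.48).

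Pdk4 encodes a kinase that shuts pyruvate dehydrogenase off and so spares pyruvate; it is known for rising in fasted tissues. It lies at chr6:5483351-5496309 (minus strand, 11 exons). It was at 14.9 and 12.7 CPM in MnDps at 24 h and at 18.1, 17.2 and 24.3 CPM in Dps at 24 h, against 29.2, 111 and 73.7 CPM in vehicle. MnDps at 4 h was at 77.3, 85.6 and 43.6 CPM, and Dps at 4 h at 149, 28.7 and 98 CPM. Both 24 h groups were wholly below vehicle, and the 4 h groups overlapped it over a wide spread. The log2 differences were −2.38 ± 0.76 in MnDps at 24 h (adjusted p = 0.0683) and −1.84 ± 0.63 in Dps at 24 h (adjusted p = 0.0666), so that neither passed. Both passed without vehicle replicate 1, the lowest of the vehicle libraries (−2.75 after MnDps and −2.22 after Dps), and with DESeq2 (−2.36 after MnDps and −1.84 after Dps). At 4 h the differences were −0.05 ± 0.59 for MnDps and 0.36 ± 0.59 for Dps.

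Insr encodes the insulin receptor. It lies at chr8:3122061-3279617 (minus strand, 21 exons), with a pseudogene and an antisense gene on the other strand. It was at 95.9 and 93.6 CPM in MnDps at 24 h, 110, 98.2 and 88.7 CPM in MnDps at 4 h, 88, 84.8 and 96.5 CPM in Dps at 24 h, 152, 124 and 127 CPM in Dps at 4 h, and 135, 97.6 and 121 CPM in vehicle. Both 24 h groups were below vehicle by a narrow gap to vehicle replicate 2. Insr fell in Dps at 24 h (−0.39 ± 0.11, adjusted p = 0.0246), but the call was lost with the length and GC correction, where the value was −0.08, with the term for deep libraries (−0.37), and without Dps at 24 h replicate 1 (−0.39) or 2 (−0.37) or vehicle replicate 1 (−0.29) or 3 (−0.38). The other differences from vehicle were −0.32 ± 0.13 in MnDps at 24 h (adjusted p = 0.111), −0.25 ± 0.11 in MnDps at 4 h (0.0788) and 0.19 ± 0.11 in Dps at 4 h (0.281). Without vehicle replicate 2 the differences of MnDps passed at 24 h (−0.45) and at 4 h (−0.39), and the one at 4 h also passed without MnDps at 4 h replicate 1 (−0.35). Without vehicle replicate 1 they were −0.21 at 24 h and −0.16 at 4 h, and with the length and GC correction −0.15 at 24 h and 0.14 at 4 h, with no call.

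Irs1 and Irs2 encode the docking proteins that carry the signal on from the receptor. Irs1 lies at chr1:82233101-82291416 and Irs2 at chr8:10984681-11008458, each on the minus strand with 2 exons and each with a gene on the opposite strand. Irs1 was at 14.2 and 14.2 CPM in MnDps at 24 h, 14, 14.1 and 8.49 CPM in MnDps at 4 h, 14, 16.5 and 21.8 CPM in Dps at 24 h, and 18.9, 18.8 and 18.4 CPM in Dps at 4 h, against 22, 18.5 and 25.7 CPM in vehicle. Both MnDps groups were wholly below vehicle, and both Dps groups overlapped it. Irs1 fell in MnDps at 4 h (−0.85 ± 0.18, adjusted p = 0.00165), a call that held in every alternative, with −0.49 after the length and GC correction. Its other differences were −0.64 ± 0.21 in MnDps at 24 h (adjusted p = 0.0522), −0.35 ± 0.18 in Dps at 24 h (0.186) and −0.25 ± 0.18 in Dps at 4 h (0.379). The MnDps 24 h difference passed with DESeq2 (−0.64), voom (−0.69), only the groups compared (−0.65) and without vehicle replicate 2 (−0.77), and the Dps 24 h one with voom (−0.44). The Dps 24 h one was −0.07 with the length and GC correction, and −0.55 to −0.21 when a library was left out.

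Irs2 was at 4.54 and 11.5 CPM in MnDps at 24 h, 9.12, 4.16 and 3.57 CPM in MnDps at 4 h, 5.23, 2.3 and 4.01 CPM in Dps at 24 h, and 11.6, 9.78 and 13.8 CPM in Dps at 4 h, against 12.1, 19 and 25.4 CPM in vehicle. The libraries of every injected group but Dps at 4 h were wholly below vehicle. Irs2 fell in Dps at 24 h (−2.31 ± 0.46, adjusted p = 0.00817) and in MnDps at 4 h (−1.76 ± 0.44, adjusted p = 0.00758), and both calls held in every alternative. The differences were −1.20 ± 0.49 in MnDps at 24 h (adjusted p = 0.127; −0.72 without its replicate 1 and −2.06 without its replicate 2) and −0.71 ± 0.41 in Dps at 4 h (adjusted p = 0.279).

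Foxo1, the transcription factor that insulin holds back, showed little spread between its group means in CPM. It lies at chr3:52268336-52353221 (plus strand, 3 exons), with an antisense gene and an unconfirmed transcript model on the same strand. Its means were 53.6 ± 3.33 CPM in MnDps at 24 h (SD, n = 2), 53.8 ± 9.05 CPM in MnDps at 4 h, 60.7 ± 4.68 CPM in Dps at 24 h, 57.1 ± 4.47 CPM in Dps at 4 h and 61 ± 11.8 CPM in vehicle (n = 3 each). The log2 differences from vehicle lay between −0.19 ± 0.15 and −0.01 ± 0.13. With the length and GC correction they were −0.06 in MnDps at 24 h and 0.19 in MnDps at 4 h. They were then 0.28 in Dps at 24 h and −0.18 in Dps at 4 h, and none passed. Transcript level does not report where the Foxo1 protein is in the cell.

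Igfbp1 encodes a secreted protein that binds insulin-like growth factors and, in liver, is shut off by insulin. It lies at chr11:7197782-7202546 (plus strand, 4 exons). It was at 3.72 and 4.42 CPM in MnDps at 24 h, 18.6, 16.2 and 10.7 CPM in MnDps at 4 h, 4.96, 1.52 and 2.77 CPM in Dps at 24 h, and 13.5, 12.2 and 15.6 CPM in Dps at 4 h, against 26.4, 8.03 and 7.8 CPM in vehicle. Every 24 h library was below every vehicle and every 4 h library, and vehicle replicate 1 stood above the other two. Igfbp1 fell in Dps at 24 h (−2.18 ± 0.54, adjusted p = 0.0199), a call lost without Dps at 24 h replicate 2 (−1.86) or 3 (−2.13) and in a fit of those groups alone (−2.18). In MnDps at 24 h the difference was −1.75 ± 0.60 (adjusted p = 0.0813), which passed with DESeq2 (−1.79) and without vehicle replicate 2 (−2.03). Without vehicle replicate 1 these differences shrank to −1.38 in Dps at 24 h, still called, and −0.95 in MnDps at 24 h. At 4 h the differences were 0.13 ± 0.47 after MnDps and −0.02 ± 0.46 after Dps. Without vehicle replicate 1 the MnDps 4 h difference was 0.93 and passed the test.

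**Figure D2:**
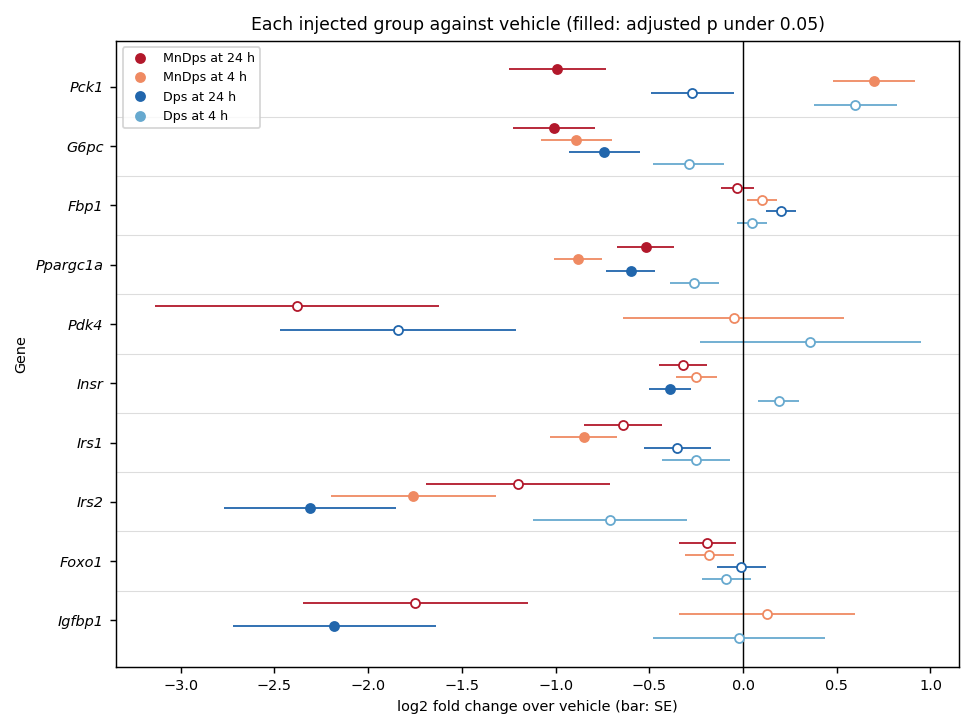
Log2 fold change over vehicle (horizontal axis, bars are SE) for the 10 genes in the 4 injected groups; filled points passed an adjusted p of 0.05. The largest fall that passed was Irs2 in Dps at 24 h at −2.31, and Pck1 has filled points on both sides of 0.

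The counts of called genes were read against the whole table. The 10 genes were chosen with earlier results of these data known, so shares here and further on describe the set without testing it. In MnDps at 4 h 5 of the 10 genes passed the test, 1 higher and 4 lower, where 45.6% of all 14854 genes passed, 22.9% higher and 22.7% lower, so a share of 5 in 10 was near that of the table. In MnDps at 24 h 3 of 10 passed, all lower, where 13.3% of all genes passed, 4.93% higher and 8.39% lower. In Dps at 24 h 5 of 10 passed, all lower, where 20.1% of all genes passed, 9.64% higher and 10.4% lower. In Dps at 4 h none of the 10 passed by edgeR, 1 had an unadjusted p under 0.05, and DESeq2 also called none; of all genes 14.6% passed, 8.33% higher and 6.27% lower. The median log2 difference of the 10 was −0.82 in MnDps at 24 h, −0.22 in MnDps at 4 h, −0.50 in Dps at 24 h and −0.06 in Dps at 4 h, while that of all genes lay between −0.02 and 0.02. In MnDps at 24 h, a group of 2 libraries, 8 of the 10 had every library below vehicle, where 22.5% of all genes did. In Dps at 24 h 6 had every library below vehicle and 1 had every library above it, where 19.6% and 18.6% of all genes did. In MnDps at 4 h 4 lay wholly below and 1 wholly above, where 25.6% and 26.3% did, and in Dps at 4 h 1 lay wholly below and none above, where 18.7% and 16% did.

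The later time was set against the earlier one within each protein, a difference that holds no vehicle level, although the vehicle libraries share in the filter and in the estimate of spread. Hour of day and feeding cannot be told apart from time after injection in this difference either. Pck1 fell at 24 h relative to 4 h after MnDps (−1.69 ± 0.26, adjusted p = 9.83e-04) and after Dps (−0.86 ± 0.22, adjusted p = 0.008), with no overlap of libraries in either, and both calls held in every alternative. Igfbp1 fell after MnDps (−1.89 ± 0.60, adjusted p = 0.0469) and after Dps (−2.16 ± 0.53, adjusted p = 0.00783). The MnDps call for Igfbp1 was lost when any one of its 5 libraries was left out (−2.09 to −1.71), with no filter on counts (−1.90) and with the length and GC correction (−1.73). Pdk4 fell after Dps (−2.20 ± 0.63, adjusted p = 0.0179), and after MnDps it differed by −2.33 ± 0.76 (adjusted p = 0.055), which passed with DESeq2 (−2.31), the stricter filter (−2.32) and only the groups compared (−2.31). Its Dps call was lost without Dps at 24 h replicate 1 (−2.15) or 2 (−2.11), without Dps at 4 h replicate 1 (−1.66), with the term for deep libraries (−2.23) and in the fit of the groups alone (−2.20). Irs2 fell after Dps (−1.60 ± 0.46, adjusted p = 0.0163) and differed by 0.55 ± 0.50 after MnDps (adjusted p = 0.458), where leaving out MnDps at 24 h replicate 2 gave −0.31 and leaving out MnDps at 4 h replicate 1 gave 1.09. The Dps call was lost without Dps at 24 h replicate 2 (−1.34) and with the term for deep libraries (−1.48).

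Insr fell at 24 h relative to 4 h after Dps (−0.58 ± 0.11, adjusted p = 7.44e-04), and with the length and GC correction it differed by −0.19 and lost its call. After MnDps its difference was −0.06 ± 0.13 (adjusted p = 0.756), and −0.29 with that correction, where it passed. Ppargc1a fell after Dps (−0.34 ± 0.13, adjusted p = 0.0417), but with the length and GC correction the value was −0.02, with the term for deep libraries it was −0.28, and the call was lost when any one of the 6 libraries was left out (−0.39 to −0.29). After MnDps, Ppargc1a differed by 0.37 ± 0.15 (adjusted p = 0.0832), which passed without MnDps at 4 h replicate 1 (0.46) and was 0.20 without MnDps at 24 h replicate 1 or MnDps at 4 h replicate 3. In all, 2 of the 10 genes passed after MnDps, both lower, where 21.8% of all genes passed, 10.1% higher and 11.7% lower. After Dps 6 passed, all lower, where 44.6% of all genes passed, 22% higher and 22.6% lower. The 24 h libraries of Dps lay wholly below those at 4 h for 6 of the genes and wholly above for none, where 29.3% of all genes were wholly below and 28.6% wholly above. For MnDps 3 were wholly below and 2 wholly above, where 26.4% and 24.2% of all genes were. G6pc (−0.12 ± 0.21 after MnDps, −0.44 ± 0.19 after Dps), Fbp1, Irs1 and Foxo1 passed for neither protein. After Dps, G6pc passed with DESeq2 (−0.44) and without Dps at 4 h replicate 2 (−0.66) but was −0.14 without Dps at 4 h replicate 1; Fbp1 passed with voom (0.17) and Foxo1 with the length and GC correction (0.46).

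**Figure D3:**
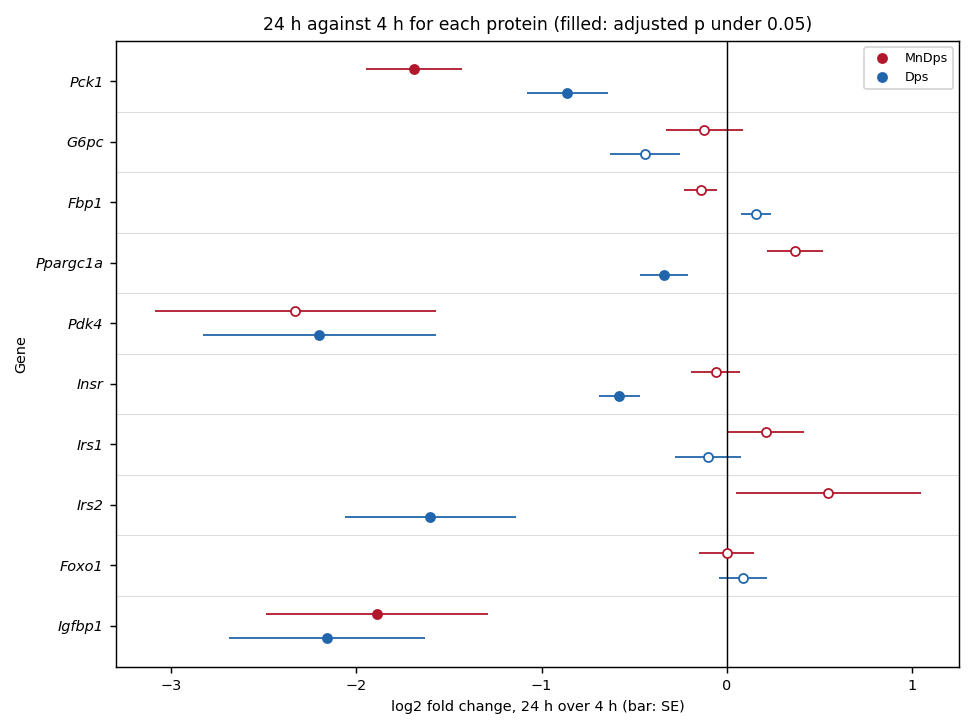
Log2 fold change of 24 h over 4 h (horizontal axis, bars are SE) after MnDps and after Dps; filled points passed an adjusted p of 0.05. Pck1 and Igfbp1 are filled for both proteins, with Pck1 at −1.69 after MnDps and −0.86 after Dps. Irs2, Ppargc1a, Irs1, Fbp1 and Foxo1 (−0.00 after MnDps and 0.09 after Dps) have points on either side of 0. Without MnDps at 24 h replicate 2 the Irs2 value after MnDps was −0.31.

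MnDps was set against Dps at each time, both having been given at the same dose. At 4 h, 4 of the 10 genes fell relative to Dps and none rose, where 41.5% of all genes passed, 20.8% higher and 20.7% lower. Ppargc1a fell by 0.62 ± 0.13 (adjusted p = 0.00146), Insr by 0.44 ± 0.11 (adjusted p = 0.00539), Irs1 by 0.61 ± 0.18 (adjusted p = 0.0142) and G6pc by 0.60 ± 0.19 (adjusted p = 0.0212), all on the log2 scale. Of the 10 genes 4 lay wholly below Dps and none wholly above, where 26.5% of all genes lay wholly below and 26.5% wholly above. For Ppargc1a, Insr and Irs1 the MnDps libraries lay wholly below those of Dps, while for G6pc MnDps replicate 3 at 430 CPM stood just above Dps replicate 2 at 429 CPM. The G6pc call was lost without Dps at 4 h replicate 1 (−0.29), without MnDps at 4 h replicate 1 (−0.59), 2 (−0.59) or 3 (−0.65), in the fit of the groups alone (−0.60) and with the term for deep libraries (−0.55). Irs2 differed by −1.05 ± 0.44 (adjusted p = 0.0783), also without overlap, which passed with only the groups compared (−1.05) and without MnDps at 4 h replicate 1 (−1.59), and Pck1 by 0.10 ± 0.22 (adjusted p = 0.756).

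Ppargc1a, Insr and Irs1 have long transcripts, with 6464, 9355 and 9144 bases in the longest one annotated. With a correction for length and GC content, the MnDps difference from Dps at 4 h was −0.19 for Ppargc1a, 0.03 for Insr and −0.16 for Irs1, and none of the 3 passed. For Fbp1, whose transcript has 1479 bases, it was 0.06 ± 0.08 without the correction and −0.29 with it, where it passed. G6pc, with 2414 bases, stayed called. The term for deep libraries ended the calls of Insr (−0.39), Irs1 (−0.48) and G6pc (−0.55). It marks Dps at 4 h replicates 1 and 2 and vehicle replicate 3. Depth and the Dps 4 h group thus largely overlap, and an effect of depth was not tested apart from that group.

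**Figure D4:**
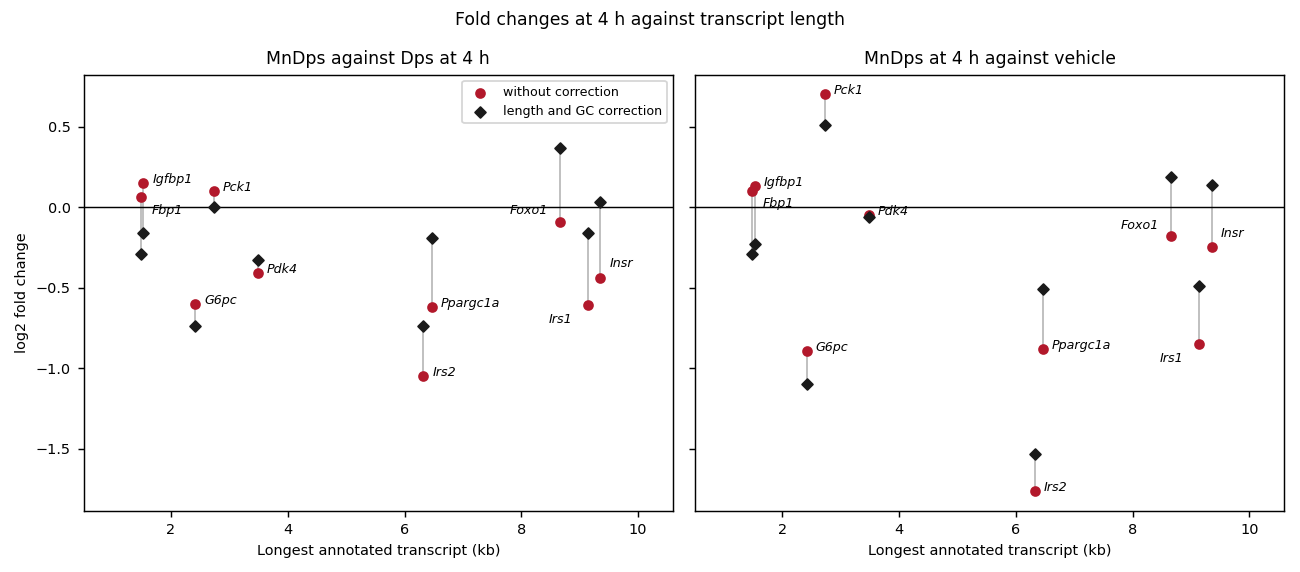
Log2 fold change of MnDps at 4 h against Dps and against vehicle (vertical axis) against the length of the longest annotated transcript in kb (horizontal axis) for the 10 genes, before (circles) and after (diamonds) a correction for length and GC content. In these 2 contrasts of MnDps the 5 genes over 6 kb shift up and the 4 shortest shift down; Insr goes to 0.03 against Dps, while Irs2 stays at −1.53 against vehicle.

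At 24 h none of the 10 genes differed between MnDps and Dps by edgeR, 2 had an unadjusted p under 0.05 and DESeq2 called none; of all genes 0.815% passed, 0.148% higher and 0.666% lower. Pck1 was 1540 and 1977 CPM after MnDps, against 2651, 2907 and 3175 CPM after Dps, a difference of −0.73 ± 0.25 with an adjusted p of 0.184. The libraries did not overlap, as for 4 of the 10 genes, all lower (19.5% of all genes were wholly lower and 18.6% wholly higher), and in a fit of these 2 groups alone the same difference passed. Irs2 differed by 1.11 ± 0.52 (adjusted p = 0.325), and by 0.24 without MnDps at 24 h replicate 2, the higher of the pair. Fbp1 differed by −0.24 ± 0.09 (adjusted p = 0.221). The difference between the 2 times, tested as an interaction, passed for 3 of the 10 genes, Irs2, Ppargc1a and Insr, all higher, where 29.4% of all genes passed, 13.7% higher and 15.7% lower.

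Scaled to transcript length, the 10 genes covered a wide range of levels. The mean over groups was 1403 CPM per kb for Pck1, 734 for Fbp1 and 218 for G6pc. The next were Pdk4 at 15.2, Insr at 11.5 and Ppargc1a at 9.91 CPM per kb, and the spread of Pdk4 between libraries covered the other two. Foxo1 at 6.61 and Igfbp1 at 6.57 CPM per kb had near means but changed places between groups: Igfbp1 was at 2.67 ± 0.326 and Foxo1 at 6.19 ± 0.385 CPM per kb in MnDps at 24 h, Igfbp1 at 2.02 ± 1.14 and Foxo1 at 7 ± 0.54 in Dps at 24 h, and Igfbp1 at 9.02 ± 1.14 and Foxo1 at 6.59 ± 0.516 in Dps at 4 h (SD). Irs1 at 1.85 and Irs2 at 1.52 were the lowest. The 3 enzymes were thus the abundant members and the 2 adaptors the scarce ones, and the share of all counts taken by the 10 genes was 0.323% to 0.385% in MnDps at 24 h, 0.606% to 0.826% in MnDps at 4 h, 0.447% to 0.508% in Dps at 24 h and 0.555% to 0.885% in Dps at 4 h, against 0.514% to 0.678% in vehicle, with Pck1 the most abundant of the set in every library.

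Other genes of glucose production and use are given by count. Of 18 tested genes for precursor uptake, shuttling and the parallel isoenzymes, 1 was higher and 2 lower in MnDps at 24 h, 4 higher and 2 lower in MnDps at 4 h, 2 higher and 2 lower in Dps at 24 h, and none higher and 1 lower in Dps at 4 h. Slc38a3, a glutamine transporter of the tubule, fell in MnDps at 24 h (−0.82 ± 0.16) and in Dps at 24 h (−0.62 ± 0.14). Pck2, the mitochondrial counterpart of Pck1, rose by 0.27 ± 0.09 in MnDps at 24 h, 0.25 ± 0.08 in MnDps at 4 h and 0.31 ± 0.08 in Dps at 24 h. Of 23 tested glycolytic genes, 5 rose and none fell in MnDps at 24 h, 8 and 2 in MnDps at 4 h, 4 and 1 in Dps at 24 h, and 3 and 1 in Dps at 4 h. Among them the hexokinase Hk2 was scarce, at 1.01 ± 0.416 CPM in vehicle. It rose to 2.41 ± 0.341 CPM in MnDps at 4 h (1.31 ± 0.41), 3.23 ± 1.36 CPM in Dps at 24 h (1.73 ± 0.41) and 3.49 ± 0.581 CPM in Dps at 4 h (1.84 ± 0.40).

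Of 39 tested genes of the insulin and IGF cascade, 1 was higher and 6 lower in MnDps at 24 h, 5 higher and 18 lower in MnDps at 4 h, none higher and 7 lower in Dps at 24 h, and 4 higher and 3 lower in Dps at 4 h. Their median log2 difference was −0.05 in MnDps at 24 h and −0.21 in MnDps at 4 h. It was −0.10 in Dps at 24 h and 0.02 in Dps at 4 h. Of all genes 22.9% were called higher and 22.7% lower in MnDps at 4 h, and 4.93% and 8.39% in MnDps at 24 h. In Dps these shares were 9.64% and 10.4% at 24 h, and 8.33% and 6.27% at 4 h. Trib3, a pseudokinase that restrains Akt, rose to 4.67 ± 1.22 CPM in MnDps at 4 h and 4.13 ± 0.614 CPM in Dps at 4 h, against 1.1 ± 0.332 CPM in vehicle (log2 2.08 ± 0.26 and 1.90 ± 0.26). Slc2a2, the basolateral glucose transporter of the proximal tubule, fell to 79.4 ± 6.63 CPM in MnDps at 4 h, against 161 ± 18 CPM in vehicle (−1.02 ± 0.10), and by 0.41 ± 0.10 in Dps at 4 h. Foxo3 fell in MnDps at 4 h (−1.19 ± 0.26) and in Dps at 24 h (−0.84 ± 0.26). Of 7 IGF binding proteins beside Igfbp1, 1 was higher in MnDps at 24 h, 2 higher and 2 lower in MnDps at 4 h, none called in Dps at 24 h, and 1 higher and 1 lower in Dps at 4 h. Igfbp3, the main carrier of IGF in blood, fell to 109 ± 28.3 CPM in MnDps at 4 h and 97.1 ± 11.3 CPM in Dps at 4 h, against 271 ± 43.6 CPM in vehicle (−1.31 ± 0.19 and −1.48 ± 0.19), where Igfbp1 did not pass.

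Of 8 genes that Foxo factors raise in other tissues, none was higher in any group, while 4 were lower in MnDps at 24 h, 3 in MnDps at 4 h, 3 in Dps at 24 h and 1 in Dps at 4 h. The shares of all genes called lower in these groups, in that order, were 8.39%, 22.7%, 10.4% and 6.27%. Called higher were 4.93%, 22.9%, 9.64% and 8.33%, and both sets of shares serve for the lists that follow. Txnip, which curbs glucose uptake, was at 663 ± 116 CPM in vehicle. It fell to 389 ± 19.8 CPM in MnDps at 24 h (−0.77 ± 0.22), 340 ± 48.3 CPM in MnDps at 4 h (−0.96 ± 0.20) and 340 ± 87.4 CPM in Dps at 24 h (−0.97 ± 0.20). Of 22 transcriptional regulators of gluconeogenesis, 1 was higher and 3 lower in MnDps at 24 h, 7 and 6 in MnDps at 4 h, none and 3 in Dps at 24 h, and 6 and 1 in Dps at 4 h. Cebpa rose in MnDps at 4 h (0.97 ± 0.10) and in Dps at 4 h (0.92 ± 0.10). Klf15, a glucocorticoid-responsive factor of amino acid use, fell in the same groups (−0.87 ± 0.09 and −0.61 ± 0.09). Esrrg, a partner of Ppargc1a, fell in MnDps at 24 h (−0.92 ± 0.15), in MnDps at 4 h (−1.31 ± 0.14) and in Dps at 24 h (−0.63 ± 0.13). Of 11 genes of pyruvate dehydrogenase and its other kinases and phosphatases, none was higher and 4 lower in MnDps at 24 h, 1 and 3 in MnDps at 4 h, none and 3 in Dps at 24 h, and 1 and 1 in Dps at 4 h.

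Since hour of day and feeding can move Pck1, Pdk4, Igfbp1 and Irs2, genes known for either are given beside them. Counts against vehicle are to be read against the shares of all genes given above. Of 12 core clock genes, 5 rose and 2 fell in MnDps at 24 h, 2 and 6 in MnDps at 4 h, 5 and 4 in Dps at 24 h, and 2 and none in Dps at 4 h. At 24 h relative to 4 h, 6 rose and 2 fell after MnDps, where 10.1% of all genes rose and 11.7% fell. After Dps 3 rose and 4 fell, where 22% and 22.6% of all genes did. Of 8 genes that fasting or glucocorticoids raise, none passed in MnDps at 24 h or Dps at 4 h, 2 rose and 1 fell in MnDps at 4 h, and 2 rose and 1 fell in Dps at 24 h. At 24 h relative to 4 h, none of these genes rose and 1 fell after MnDps, and 3 rose and 2 fell after Dps. Their part in the values of the 10 genes was not tested.

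Markers of other cells moved with the groups as well. Their counts, too, are to be read against the shares of all genes given above. Of 13 proximal tubule markers, none was higher and 1 lower in MnDps at 24 h, 1 and 9 in MnDps at 4 h, 1 and 2 in Dps at 24 h, and none and 5 in Dps at 4 h. Their summed level was 60142 to 73016 CPM in MnDps at 4 h and 47673 to 53257 CPM in Dps at 4 h, against 55088 to 58012 CPM in vehicle, but most of it was Kap. The other 12 summed to 15068 to 17303 CPM in MnDps at 24 h, 14575 to 15353 CPM in MnDps at 4 h, 16975 to 18831 CPM in Dps at 24 h and 15678 to 16267 CPM in Dps at 4 h, against 18013 to 18965 CPM in vehicle. Of 8 markers of other nephron segments, MnDps at 24 h had 2 higher and 3 lower, with 3 and 3 in MnDps at 4 h, 2 and 2 in Dps at 24 h, and none and 1 in Dps at 4 h. Of 8 adipocyte markers none passed in MnDps at 24 h, 3 were higher in MnDps at 4 h, 1 in Dps at 24 h and 4 in Dps at 4 h. Of 4 tested hepatocyte markers, out of 8 in the table, 3 were higher in MnDps at 4 h and none passed elsewhere. The 8 summed to 28.1 to 48 CPM in MnDps at 4 h, against 22.5 to 24.6 CPM in vehicle. Over all libraries the sum ran from 18.8 to 48 CPM. The untested Ahsg, Cps1, Tat and Tdo2 were at or near 0. Of 7 endothelial markers, 2 were higher in MnDps at 24 h, 5 lower in MnDps at 4 h, 1 higher and 1 lower in Dps at 24 h, and 1 higher and 5 lower in Dps at 4 h. Of 7 macrophage markers, 5 were higher in MnDps at 24 h, 1 higher and 3 lower in MnDps at 4 h, 6 higher in Dps at 24 h and 2 lower in Dps at 4 h. Of 3 tested neutrophil markers all were higher at 4 h after either protein, 1 in Dps at 24 h and none in MnDps at 24 h. The part of these markers in the values of the 10 genes was not tested.

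The genes most like each repeatedly called member over the 14 libraries were picked by the smallest root mean square difference of centred log2 CPM. For Pck1 these were Ndrg1 (0.23), Tspyl5 (0.25) and Aim1l (0.30), where Pck1 itself spread by 0.62 about its mean. Ndrg1 averaged 1064 CPM in MnDps at 24 h, 3105 CPM in MnDps at 4 h, 1414 CPM in Dps at 24 h, 2750 CPM in Dps at 4 h and 1936 CPM in vehicle. For G6pc they were Gpd2 (0.18), Slc5a8 (0.19) and St8sia6 (0.20), against its own spread of 0.42. For Irs2, with a spread of 0.98, they were Erbb3 (0.43), Arid5b (0.44) and Ptch1 (0.45). For Ppargc1a, with a spread of 0.35, they were Pja2 (0.11), Trpm7 (0.11) and Cobll1 (0.12).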

How the data were processed

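RNA from whole mouse kidneys was sequenced with a stranded mRNA kit in 14 libraries. The submitters' processing notes name the tools STAR and featureCounts and the build mm10; no source used here gives their versions, the annotation or the strand setting. The deposited values are raw counts for each gene, without normalisation, in a column per library. Groups come from the labels' treatment and time; the labels hold no replicate numbers, and those used here were given in accession order to name libraries.

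The members and gene lists were chosen with earlier results of these data known, so list counts are descriptions with no test. All 10 members are named. From other lists, up to 3 of the largest rises and falls that passed, reaching a mean of 1 CPM in the higher of both groups, may be named, and outside the lists the 3 genes nearest in pattern to members called in at least 2 comparisons with vehicle.

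Genes were filtered with filterByExpr of edgeR (version 4.0.16 in R 4.3.3), which removed 9567. Counts were scaled by the trimmed mean of M-values, and CPM use the scaled totals. Log2 fold changes were tested with edgeR's quasi-likelihood F-test in 1 robust fit of 5 group means (9 residual degrees of freedom), with Benjamini-Hochberg adjustment over all genes within a comparison and a threshold of 0.05. The SE is the size of the change over the square root of F. The fit was run on simulated counts with 100 genes changed at each of 2 sizes. Of 1.5-fold changes 43% to 61% were called over the 4 comparisons with vehicle, and of 2-fold changes 72% to 79%. Changes of these sizes could therefore fail the test. The simulated fits called 127 to 141 genes in all, against 1978 to 6768 in the real comparisons with vehicle. Adjustment was thus stricter in the simulation, and its rates do not give the sensitivity of the real tests. The counts were drawn with the spreads of the fit itself, so they do not test those spreads. The common biological coefficient of variation was 10.7%. Alternatives were median-of-ratios size factors, no filter, a stricter filter (1 CPM in 3 libraries), DESeq2 1.42.0, voom with quality weights (limma 3.58.1), the groups compared alone, splines of transcript length and GC content (4 degrees of freedom each, 96.5% of tested genes), a term for libraries over 30000000 counts, and leaving out each library. Gene positions are from GENCODE M21 (GRCm38, the same assembly as mm10).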

Additional observations from a re-analysis of the deposited data

Results flagged for a closer look

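For 3 genes the difference of MnDps from Dps was itself different at 24 h and at 4 h, by the interaction of protein and time (edgeR, adjusted over all genes). For Irs2 the change between the differences was 2.16 ± 0.68 on the log2 scale (adjusted p = 0.0352): MnDps against Dps was 1.11 at 24 h and −1.05 at 4 h. For Ppargc1a it was 0.71 ± 0.19 (adjusted p = 0.0129), from 0.09 at 24 h and −0.62 at 4 h. For Insr it was 0.52 ± 0.17 (adjusted p = 0.0306), from 0.08 at 24 h and −0.44 at 4 h. With the length and GC correction the Insr value was −0.10, and none of the 3 passed (Irs2 1.67, Ppargc1a 0.29), nor did any with a term for deep libraries (Irs2 2.03, Ppargc1a 0.65, Insr 0.46). Without MnDps at 24 h replicate 2 Irs2 was 1.29 and lost its call; it also lost its call without MnDps at 4 h replicate 2 or 3, Dps at 4 h replicate 1 or 3, or Dps at 24 h replicate 2 or 3 (1.90 to 2.20), and with no filter on counts (2.17). The Insr call was lost without either library of MnDps at 24 h, MnDps at 4 h replicate 2 or 3, Dps at 24 h replicate 1 or 2, or Dps at 4 h replicate 1 (0.43 to 0.54), and the Ppargc1a call only without MnDps at 24 h replicate 1 (0.55).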

How the results depend on the processing

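Each member was retested in each of the 9 comparisons under the alternatives listed above, which gave 1280 values. Of these 1160 stayed on their side of the threshold (62 of them with another sign and no call either way), 84 lost a call, 32 gained one and 4 changed sign with a call in one of the fits. Those 4 all came with the length and GC correction: Fbp1 was −0.29 in MnDps at 4 h against vehicle and −0.29 in MnDps against Dps at 4 h, and Insr was 0.03 in MnDps against Dps at 4 h and −0.10 in the interaction. The cause was not tested.

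The number of the 10 genes called moved by over 1.5 times as follows. With the length and GC correction it was 2 instead of 4 in MnDps against Dps at 4 h, 1 instead of 0 in Dps at 4 h against vehicle (Ppargc1a) and 0 instead of 3 in the interaction. With the term for libraries over 30000000 counts it was 1 instead of 4 in MnDps against Dps at 4 h, 3 instead of 6 in Dps at 24 h against 4 h and 0 instead of 3 in the interaction. With DESeq2 it was 6 instead of 3 in MnDps at 24 h against vehicle, with no filter 1 instead of 2 in MnDps at 24 h against 4 h, and with only the groups compared 1 instead of 0 in MnDps against Dps at 24 h (Pck1). Leaving out a library gave 0 to 6 genes in MnDps at 24 h against vehicle, 4 to 6 in MnDps at 4 h, 2 to 5 in Dps at 24 h and 0 to 1 in Dps at 4 h. It gave 1 to 2 in MnDps and 3 to 6 in Dps at 24 h against 4 h, 3 to 4 in MnDps against Dps at 4 h, 0 to 0 at 24 h, and 1 to 3 in the interaction.

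Over all genes, MnDps against Dps at 24 h had 121 calls, against 558 with DESeq2, 716 with voom, 727 with only the groups compared and 68 with the term for deep libraries. MnDps at 24 h against 4 h had 3242 calls, and 1878 with only the groups compared. With the length and GC correction, MnDps at 24 h against vehicle had 1179 calls instead of 1978, Dps at 24 h 1489 instead of 2979, Dps at 4 h 3790 instead of 2168, MnDps against Dps at 4 h 3723 instead of 6158, and the interaction 2393 instead of 4368. With the term for deep libraries those in MnDps at 24 h were 1033, in Dps at 24 h 1637, in MnDps against Dps at 4 h 3558, and in Dps at 24 h against 4 h 4225 instead of 6626. Without a library, MnDps against Dps at 24 h had as few as 5 calls (MnDps at 24 h replicate 1), MnDps at 24 h against vehicle 300 (the same library), Dps at 24 h against vehicle 843 (vehicle replicate 3), MnDps at 24 h against 4 h 1336 and the interaction 2724 (MnDps at 24 h replicate 2), and Dps at 4 h against vehicle 1435 (Dps at 4 h replicate 2).

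No paired analysis was possible because the labels give no replicate numbers; those used here only name libraries. MnDps at 24 h has 2 libraries, so its spread is taken mainly from the other groups, and leaving one out leaves a lone library assumed to vary as they do. Igfbp1 and Irs2 had the fewest counts of the set and the widest errors with Pdk4.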
